A study of Homo sapiens with 6 samples.

Results

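The PDGF and VEGF growth factors are secreted ligands of receptor tyrosine kinases, and 8 of their genes were followed here by name in PC3 cells: PDGFA, PDGFB, PDGFC, PDGFD, VEGFA, VEGFB, VEGFC and PGF. They were chosen for belonging to these families and not by a rule on measured values. Earlier results of these data were known when the genes and the lists used below were chosen. They are 8 of the 24462 gene symbols in the deposited counts, and all 8 passed the filter on low counts that left 16314 genes for testing. The data are RNA-seq read counts from 6 cultures. Of these, 3 were transfected with non-targeting siRNA (si-Control) and 3 with siRNA against CITED2 (si-CITED2), each at 80 nM for 72 h. PC3 is an established human prostate cancer line that was grown out of a metastasis to bone, and CITED2 is a transcriptional co-regulator that binds CBP and p300. The study used the comparison to ask how gene expression changes when CITED2 is knocked down.

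PDGF ligands act mainly on mesenchymal cells such as pericytes and fibroblasts through PDGFRA and PDGFRB, and the C and D forms are secreted in a latent form that proteases must cut. VEGFA drives the growth of blood vessels through FLT1 and KDR, VEGFB and PGF bind FLT1, and VEGFC drives lymphatic growth through FLT4. Neuropilins (NRP1 and NRP2) are co-receptors for several of these ligands, and prostate cancer cells are known to secrete such ligands for other cells to sense.

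The targeted gene was read first, because it checks the labels. CITED2 had normalised read counts of 858.6, 892.0 and 773.0 in the si-Control libraries and 1084.3, 921.1 and 983.9 in the libraries labelled si-CITED2. Its mRNA was therefore not lower where the label says it was silenced: the log2 fold change was 0.24 (SE 0.07, adjusted p = 0.0363, quasi-likelihood test of edgeR, Benjamini-Hochberg adjusted). The adjusted p was 0.0536 without si-Control replicate 1, 0.141 without si-Control replicate 3, 0.154 without si-CITED2 replicate 1 and 0.0846 without si-CITED2 replicate 3, with CITED2 higher each time. The study showed the knockdown by immunoblot, which these files do not hold. Every direction below is that of the libraries labelled si-CITED2 against si-Control.

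Total counts were between 19508925 and 28936374 per library, so that 3 counts, the least taken as detected, correspond to 0.104 to 0.154 CPM, that is, counts scaled to a fixed library total. On the first principal component, with 47.7% of the variance, the groups lay apart, from -24.21 to -19.89 in si-Control and from 21.5 to 22.84 in the libraries labelled si-CITED2. Epithelial genes were abundant, with 15594 to 21687 raw counts of KRT8. Of the 10 endothelial markers, some were near the floor (PECAM1 4 to 11 counts, TIE1 0 to 1). Others were above it, with 741 to 977 raw counts of EGFL7, 61 to 114 of EMCN, 23 to 39 of ESAM and 12 to 63 of ROBO4. Of the 12 pericyte and fibroblast markers, LUM, DCN and COL1A2 had at most 2 counts in any library, but others were well above the floor, with 1004 to 1442 raw counts of MCAM, 256 to 411 of CSPG4, 99 to 166 of COL1A1, 91 to 161 of RGS5 and 72 to 152 of ANPEP.

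Among the 8 ligand genes, 4 rose in the libraries labelled si-CITED2 (PDGFB, PDGFC, VEGFA and VEGFC) and 0 fell, at an adjusted p under 0.05. Over all genes tested, 17.4% passed, 9.36% higher and 8.09% lower. The rises were between 1.36-fold for VEGFA and 2.23-fold for PDGFB. The median log2 fold change was 0.46 over the 8 ligands and 0 over all genes tested. The groups did not overlap for 5 of the 8 ligands, each of them higher in the libraries labelled si-CITED2, against 32.5% of all genes without overlap, 16.4% higher and 16.1% lower. These are bulk cultures, in which more cells that make a ligand and more RNA per cell cannot be told apart.

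**Figure D1:**
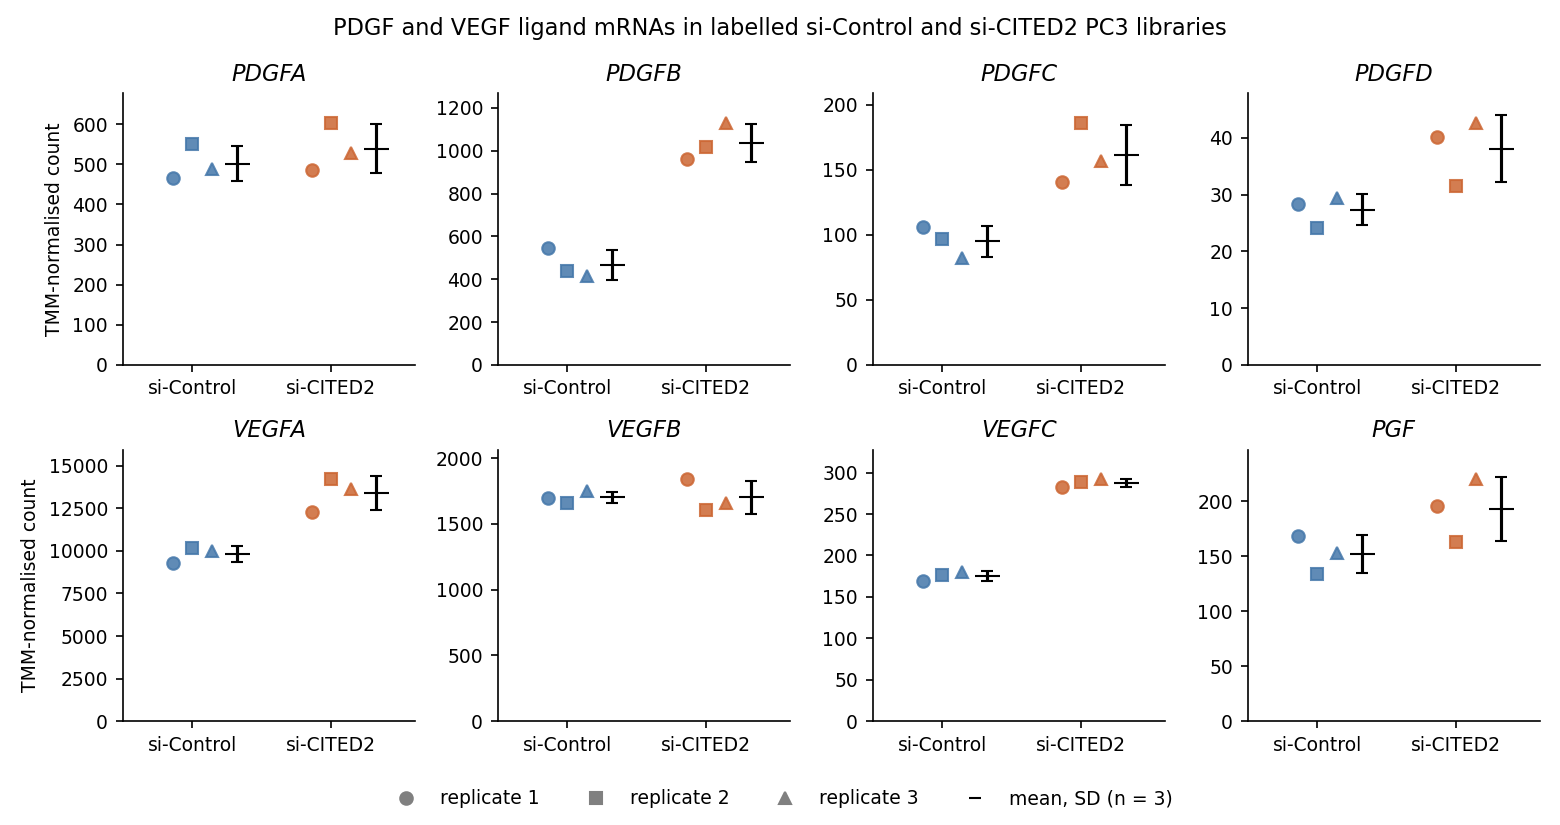
TMM-normalised read counts of the 8 ligand genes in each library, 1 panel per gene, with replicate numbers as symbols and black bars for the mean and SD (n = 3). PDGFB, PDGFC, PDGFD, VEGFA and VEGFC show no overlap between si-Control and si-CITED2, while PDGFA, VEGFB and PGF overlap.

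PDGFB encodes the B chain, the ligand that recruits pericytes to vessels through PDGFRB. Its normalised read counts were 545.7, 438.0 and 413.0 in si-Control and 960.5, 1015.7 and 1131.8 in the libraries labelled si-CITED2. Every library of the second group lay well above every si-Control library. The mean rose from 465.6 ± 70.5 to 1036.0 ± 87.4 (SD, n = 3), a log2 fold change of 1.15 (SE 0.09, 95% interval 0.95 to 1.35, adjusted p = 1.66e-07). It was the only ligand among the 8 to exceed a 2-fold change with an unadjusted p under 0.05, the rule the study states for its heat map, which 1.91% of all genes passed, 1.59% higher.

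PDGFA, the A chain that signals through PDGFRA, gave a different picture. Its normalised read counts were 465.7, 549.9 and 487.1 in si-Control and 484.5, 603.9 and 528.1 in the libraries labelled si-CITED2. The groups overlapped, with means of 500.9 ± 43.7 and 538.8 ± 60.4. The log2 fold change was 0.11 (SE 0.09, adjusted p = 0.506) and its 95% interval, from -0.09 to 0.30, lies below the interval of PDGFB.

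Since both chains are counted in the same library, their ratio does not depend on the scaling between libraries. There were 1.17, 0.796 and 0.848 PDGFB counts per PDGFA count in si-Control and 1.98, 1.68 and 2.14 in the libraries labelled si-CITED2. The ratio was higher in all 3 of the latter, and its mean went from 0.939 ± 0.203 to 1.94 ± 0.234. Of the counts of the 4 PDGF ligands, PDGFB made up 39.5 to 47.6% in si-Control and 55.3 to 60.9% in the libraries labelled si-CITED2, while PDGFA made up 40.7 to 49.6% and 28.4 to 32.9%. These are shares of reads, not corrected for transcript length. With 3 libraries against 3, the smallest two-sided exact permutation p is 0.1, which each of the 4 ratios computed between ligands reached (0.1 also after Benjamini-Hochberg adjustment).

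PDGFC encodes a ligand that is latent until its CUB domain is cut off. Its normalised read counts were 105.8, 96.6 and 82.4 in si-Control and 140.9, 186.3 and 156.7 in the libraries labelled si-CITED2, with no overlap. The mean rose 1.7-fold, from 94.9 ± 11.8 to 161.3 ± 23.1 (log2 fold change 0.76, SE 0.15, 95% interval 0.44 to 1.08, adjusted p = 0.00192). Its ratio to PDGFA was 0.227, 0.176 and 0.169 in si-Control and 0.291, 0.309 and 0.297 in the libraries labelled si-CITED2, again without overlap.

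PDGFD, the other latent form and a ligand of PDGFRB, was the least abundant of the 8. Raw counts were 32, 30 and 25 in si-Control and 33, 33 and 39 in the libraries labelled si-CITED2, and normalised counts were 28.4, 24.2 and 29.4 against 40.1, 31.5 and 42.7. The groups did not overlap, but the log2 fold change of 0.48 (SE 0.25, 95% interval -0.06 to 1.02) did not pass, with an adjusted p of 0.23. At this depth counting alone gives a coefficient of variation of 18.6% in si-Control and 16.9% in the libraries labelled si-CITED2, no smaller than the observed 10.2% and 15.4%. An exon of DDI1 overlaps PDGFD on the other strand in GENCODE 29, and DDI1 itself had at most 2 counts per library.

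VEGFA, the main angiogenic ligand and a known target of hypoxia-inducible factors, was far more abundant. Its normalised read counts were 9315.3, 10190.0 and 9998.9 in si-Control and 12278.7, 14231.0 and 13626.0 in the libraries labelled si-CITED2. All 3 of the latter were above all 3 controls. The mean rose 1.36-fold, from 9834.7 ± 459.9 to 13378.6 ± 999.4 (log2 fold change 0.44, SE 0.06, 95% interval 0.32 to 0.57, adjusted p = 3.21e-05). Because of its depth, counting error was under 1% here (0.974% and 0.895%), against a spread between replicates of 4.68% and 7.47%. VEGFA was at the 98.4th percentile of mean count among the genes tested, and its rise added the most reads of any ligand.

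VEGFB, a ligand of FLT1 linked to endothelial lipid uptake, had overlapping groups, with normalised read counts of 1694.0, 1658.5 and 1748.5 in si-Control and 1842.1, 1608.1 and 1655.5 in the libraries labelled si-CITED2. The means were 1700.3 ± 45.3 and 1701.9 ± 123.7, and the log2 fold change was 0.00 with a 95% interval of -0.13 to 0.13 (adjusted p = 0.997). A change the size of that in VEGFA lies outside this interval. Within each library VEGFB was 0.182, 0.163 and 0.175 of VEGFA in si-Control and 0.15, 0.113 and 0.121 in the libraries labelled si-CITED2, lower in all 3 of the latter. VEGFA took 82.1 to 83.8% of the reads of the 4 VEGF ligands in si-Control and 84.1 to 87.4% in the other group.

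VEGFC, the lymphangiogenic ligand, had the tightest replicates of the ligands that rose. Its normalised read counts were 168.9, 176.3 and 180.0 in si-Control and 282.9, 288.6 and 292.5 in the libraries labelled si-CITED2. The gap between the groups was many times the spread within either. The mean rose 1.65-fold, from 175.1 ± 5.68 to 288.0 ± 4.82 (log2 fold change 0.72, SE 0.10, 95% interval 0.50 to 0.94, adjusted p = 0.000103). The replicate spread of 3.25% and 1.68% was below the counting error of 7.31% and 6.12%, so the closeness of the replicates says little about their true spread. VEGFC was 0.0181, 0.0173 and 0.018 of VEGFA in si-Control and 0.023, 0.0203 and 0.0215 in the libraries labelled si-CITED2.

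PGF encodes placental growth factor, a ligand of FLT1. Its normalised read counts were 168.0, 133.6 and 153.0 in si-Control and 195.5, 162.4 and 220.2 in the libraries labelled si-CITED2. Replicate 2 of the second group lay within the si-Control range. The log2 fold change of 0.35 (SE 0.14, 95% interval 0.04 to 0.65) had an unadjusted p of 0.0271 and an adjusted p of 0.112, and so did not pass.

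Summed over their genes, the PDGF ligands went from 1088.7 ± 69.1 to 1774.2 ± 128.9 normalised counts, 1.63 times the si-Control mean, and the VEGF ligands with PGF from 11861.7 ± 448.2 to 15561.1 ± 869.2, 1.31 times. The first sum was carried mainly by PDGFB and the second by VEGFA.

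**Figure D2:**
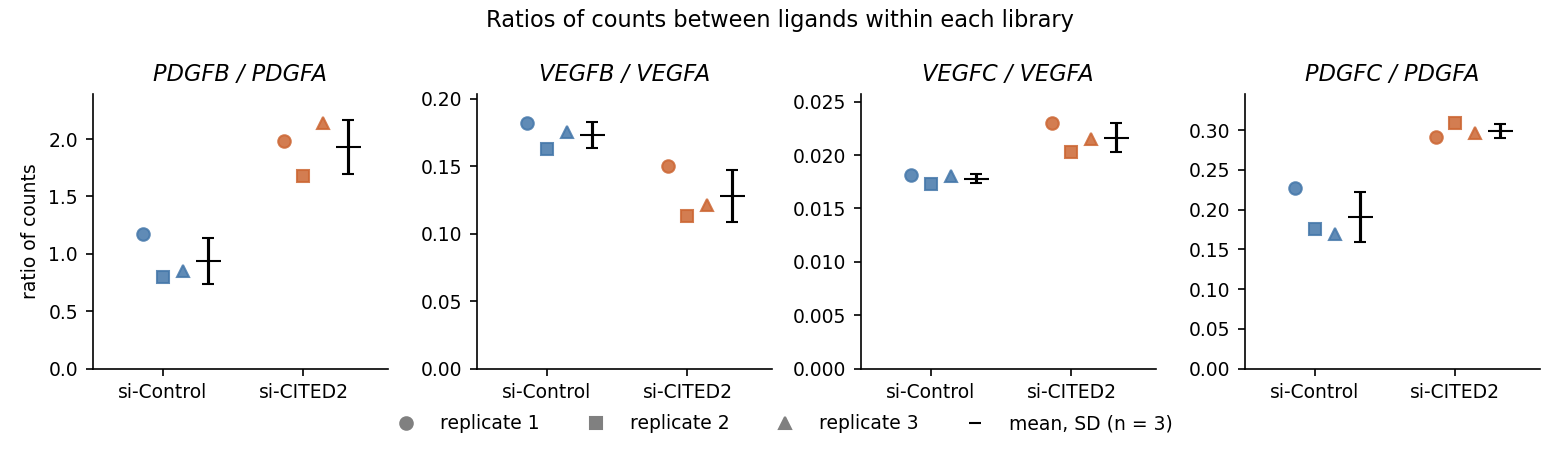
Ratio of raw counts between ligand genes within each library (y axis, no unit), with replicate numbers as symbols and bars for the mean and SD (n = 3). The ratios of PDGFB and PDGFC to PDGFA and of VEGFC to VEGFA are higher in all 3 si-CITED2 libraries than in any si-Control library, and that of VEGFB to VEGFA is lower.

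Levels were compared between genes as CPM per kb of the longest coding transcript of GENCODE 29, an approximate length since the annotation used for counting is not known. In si-Control the level was 118 ± 5.5 for VEGFA, 52.2 ± 1.41 for VEGFB, 9.21 ± 0.802 for PDGFA, 5.64 ± 0.855 for PDGFB, 3.60 ± 0.117 for VEGFC, 3.33 ± 0.379 for PGF, 0.966 ± 0.12 for PDGFC and 0.286 for PDGFD. Neighbours in this order did not overlap, except VEGFC and PGF. In the libraries labelled si-CITED2, PDGFB stood above PDGFA on this scale (12.6 ± 1.06 against 9.91 ± 1.11). The place of VEGFA over VEGFB depends on the length taken: over all joined exons, which for VEGFA span 14.43 kb, VEGFB was at 46.7 and VEGFA at 28.9 in si-Control. So does that of PDGFA over PDGFB in si-Control (5.11 against 5.25 over joined exons), whereas PDGFB was the higher of the pair in the libraries labelled si-CITED2 with either length (11.7 against 5.5 over joined exons).

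**Figure D3:**
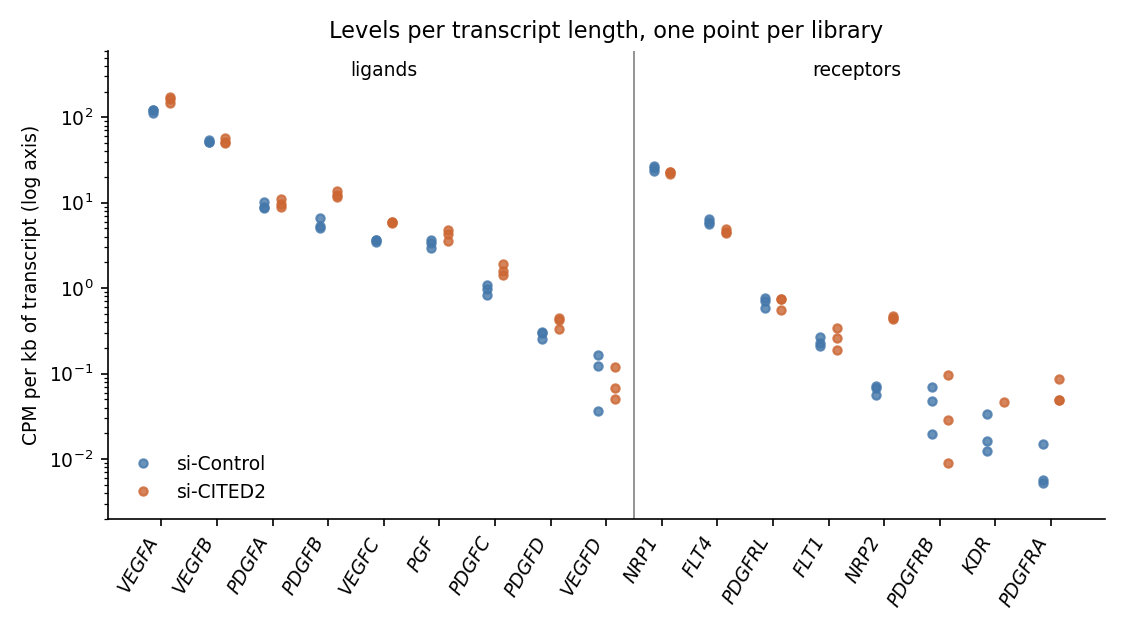
Levels of ligand and receptor genes as CPM per kb of transcript on a log axis, 1 point per library. The 8 ligand genes span VEGFA at 118 to PDGFD at 0.286 in si-Control, and VEGFD, outside the 8, lies lower at 0.109. NRP1 and FLT4 lead the receptors, and the 2 si-CITED2 libraries with 0 counts of KDR are not drawn.

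Promoter sequences are shown to set a ligand that rose beside one that did not, together with the co-receptor NRP2 described next. RefSeq windows of the 250 bases before a gene's start (GRCh38.p14) were found for 5 of the 8 ligands (PDGFA, PDGFD, VEGFB, VEGFC and PGF), in 9 windows, and not for PDGFB, PDGFC and VEGFA. Capitals mark CAGAC (the core bound by SMAD proteins), ACGTG (the core of the hypoxia response element) and GGGCGG (the GC box bound by SP1), searched on both strands with overlapping matches counted.
VEGFC, chr4:176792923-176793172, minus strand: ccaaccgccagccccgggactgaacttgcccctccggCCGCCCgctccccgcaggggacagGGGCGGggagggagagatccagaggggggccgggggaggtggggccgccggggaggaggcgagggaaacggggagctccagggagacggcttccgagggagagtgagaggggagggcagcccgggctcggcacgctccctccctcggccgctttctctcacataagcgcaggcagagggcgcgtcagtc
VEGFB, chr11:64234334-64234583, plus strand: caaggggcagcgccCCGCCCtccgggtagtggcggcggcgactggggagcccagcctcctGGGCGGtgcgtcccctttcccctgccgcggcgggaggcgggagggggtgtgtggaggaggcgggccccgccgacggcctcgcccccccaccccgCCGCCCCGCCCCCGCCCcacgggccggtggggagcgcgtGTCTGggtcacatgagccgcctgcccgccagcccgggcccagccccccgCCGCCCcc
NRP2, chr2:205682251-205682500, plus strand: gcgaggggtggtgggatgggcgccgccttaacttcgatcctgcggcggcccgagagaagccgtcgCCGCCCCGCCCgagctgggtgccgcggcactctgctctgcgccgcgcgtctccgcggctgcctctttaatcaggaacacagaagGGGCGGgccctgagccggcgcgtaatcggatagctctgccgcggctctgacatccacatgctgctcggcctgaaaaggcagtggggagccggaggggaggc

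The VEGFC window held 2 GC boxes, the VEGFB window 6 GC boxes and 1 SMAD core, and the NRP2 window 3 GC boxes. The GC box is present in 42.6% of the 35116 RefSeq windows, CAGAC in 38% and ACGTG in 18.5%. None of the 9 ligand windows held ACGTG. A match of such short letters is a description of the window only.

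Among the 8 receptor and co-receptor genes, 5 could be tested, of which NRP2 rose and FLT4 and NRP1 fell. Over all genes tested, 9.36% were higher and 8.09% lower. NRP2, the co-receptor of VEGFC, had 10, 14 and 9 raw counts in si-Control and 58, 78 and 63 in the libraries labelled si-CITED2. Normalised, these were 8.89, 11.3 and 10.6 against 70.4, 74.5 and 69.0, with a wide gap between the groups. The mean rose 6.96-fold, from 10.2 ± 1.23 to 71.3 ± 2.86 (log2 fold change 2.78, SE 0.25, 95% interval 2.24 to 3.32, adjusted p = 6.12e-07). NRP2 passed the filter on low counts only through the libraries labelled si-CITED2, where it is high, so its call is given as a description. With 9 raw counts in si-Control replicate 3, it was not tested under the filter of at least 10 counts in every library. GENCODE 29 places an antisense gene over exons of NRP2, and without knowledge of the strand setting reads of the pair cannot be told apart. The same holds for VEGFA and NRP1, each with an antisense gene over its exons, and for PDGFRL, whose antisense neighbour MTUS1 had 633 to 913 counts per library against 26 to 39 for PDGFRL.

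FLT4, the receptor of VEGFC, had normalised read counts of 825.7, 771.3 and 896.6 in si-Control and 605.9, 683.2 and 628.9 in the libraries labelled si-CITED2. It was lower in all 3 of the latter, from 831.2 ± 62.8 to 639.3 ± 39.7 (log2 fold change -0.37, SE 0.08, adjusted p = 0.00209). The ligand VEGFC and its co-receptor NRP2 were thus higher, and its receptor FLT4 lower, in the same libraries. NRP1, the most abundant co-receptor, went from 3530.0 ± 216.9 to 3135.3 ± 79.1 (log2 fold change -0.17, SE 0.05, adjusted p = 0.0385). Its call was lost, with adjusted p between 0.0846 and 0.154, without si-Control replicate 2, without si-Control replicate 3 and without each of the 3 libraries labelled si-CITED2 in turn.

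The other receptors were rare. FLT1, which binds VEGFA, VEGFB and PGF, had 39.5 ± 5.21 and 44.3 ± 12.7 normalised counts (log2 fold change 0.15, SE 0.25, adjusted p = 0.752), and the receptor-like gene PDGFRL 31.0 ± 4.1 and 30.9 ± 5.28 (adjusted p = 0.991). PDGFRA had 1, 1 and 2 raw counts in si-Control and 11, 8 and 7 in the libraries labelled si-CITED2, too few for the filter. GENCODE 29 places exons of another gene on the same strand over PDGFRA, so its reads may not all be its own. The ratio of its rates was 7.51 with a 95% counting interval of 2.61 to 29.6, and in a fit without the filter, which called 13.8% of 21775 genes, its adjusted p was 0.0106. PDGFRB, the receptor of PDGFB, had 3, 8 and 8 counts against 1, 4 and 12, and KDR, the main signalling receptor of VEGFA, had 2, 6 and 2 against 0, 0 and 6, so no difference was detectable at this depth. VEGFD, a lymphangiogenic ligand outside the 8 that the files list as FIGF, had 2, 10 and 5 counts against 2, 6 and 3. The libraries in which PDGFB and VEGFA rose thus held few reads of PDGFRB and KDR.

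**Figure D4:**
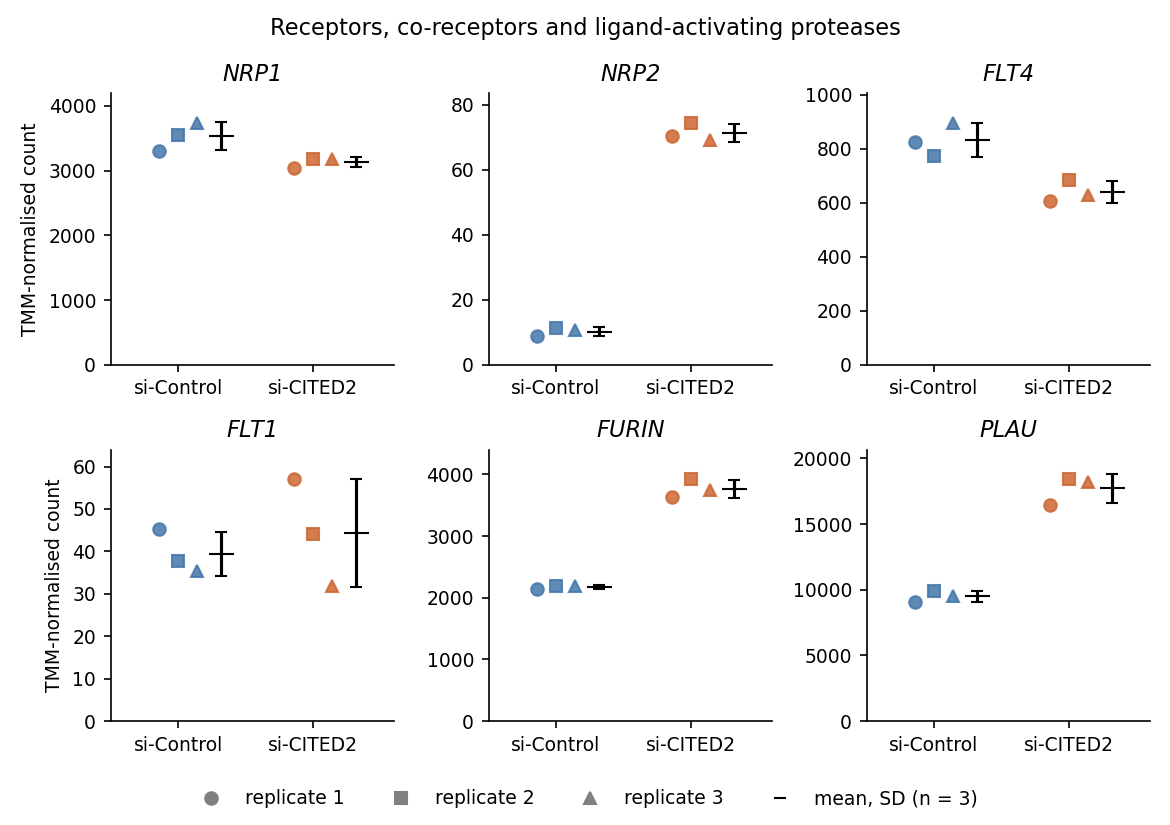
TMM-normalised read counts of 4 receptor or co-receptor genes and 2 ligand-activating proteases in each library, with replicate numbers as symbols and bars for the mean and SD (n = 3). NRP2, FURIN and PLAU are higher and FLT4 and NRP1 lower in all 3 si-CITED2 libraries, and FLT1 overlaps.

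Of 9 genes that cut or help to cut the ligands, FURIN and PLAU rose and 0 fell, against 9.36% and 8.09% of all genes tested. The median log2 fold change of the 9 was 0.38. FURIN, the convertase that processes the PDGF chains and VEGFC, had normalised read counts of 2145.5, 2196.3 and 2196.8 in si-Control and 3630.7, 3928.9 and 3741.5 in the libraries labelled si-CITED2. That is a 1.73-fold rise well outside the replicate spread (log2 fold change 0.79, SE 0.05, adjusted p = 7.64e-09). PLAU, the urokinase that can activate PDGFD, had 9093.1, 9892.9 and 9522.4 against 16447.3, 18437.9 and 18234.1, a 1.86-fold rise (log2 fold change 0.90, SE 0.05, adjusted p = 3.69e-09). These were the only proteases of the 9 that passed.

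PLAT, the tissue plasminogen activator that cuts PDGFC, had means of 30.7 and 39.8 normalised counts without overlap (log2 fold change 0.38, SE 0.24, adjusted p = 0.315). The convertase PCSK6 was at 367.0 ± 65.5 and 288.2 ± 30.5 (log2 fold change -0.34, SE 0.12, adjusted p = 0.0704). The rare genes PCSK5 (log2 fold change 0.43, SE 0.38) and ADAMTS3, which cuts VEGFC (0.73, SE 0.41), had wide errors. PCSK7 (0.01), the PDGFD-activating protease gene ST14 (-0.02) and CCBE1, the cofactor of VEGFC cleavage (0.04), had log2 fold changes near 0 with adjusted p between 0.758 and 0.918.

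**Figure D5:**
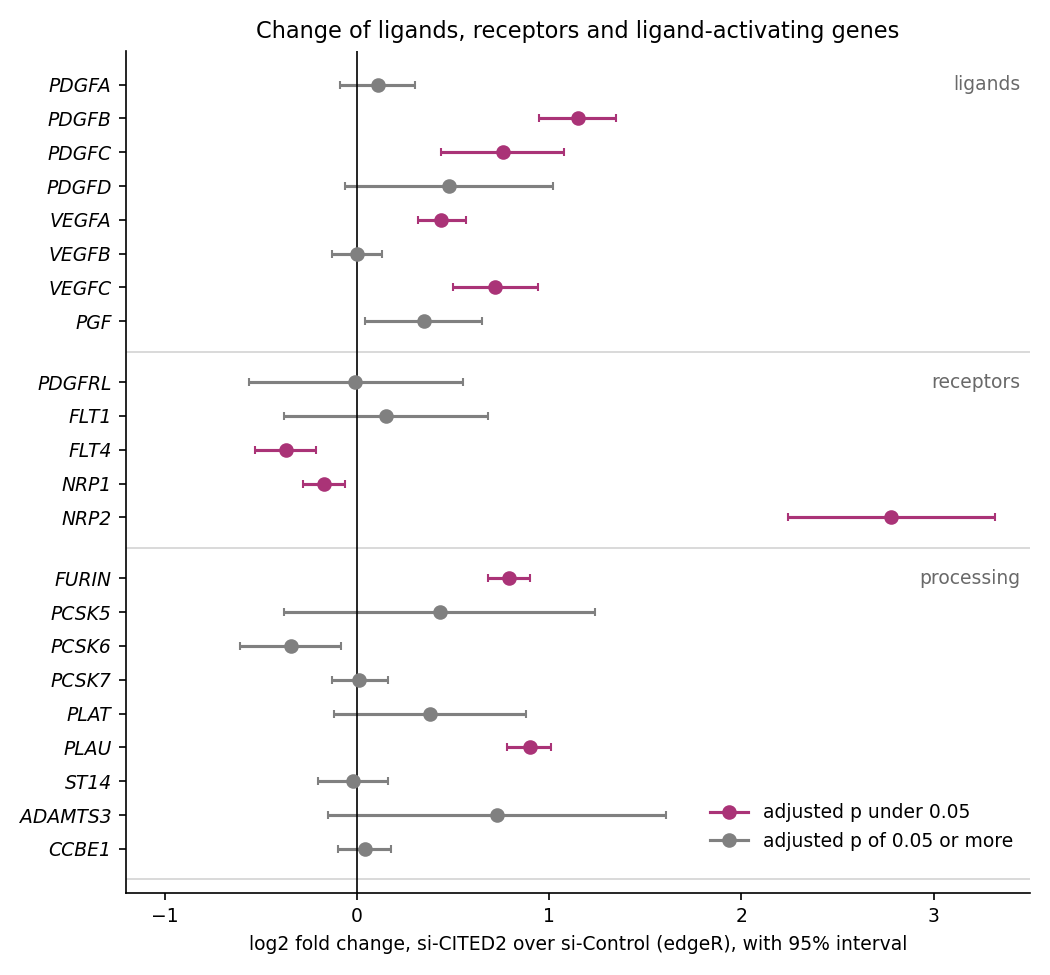
Log2 fold change of si-CITED2 over si-Control with its 95% interval (edgeR), for the 8 ligand genes, the 5 tested receptor genes and 9 ligand-activating genes, coloured by whether the adjusted p was under 0.05. PDGFB leads the ligands at 1.15, NRP2 the tested receptors at 2.78 and PLAU the activating genes at 0.90, while FLT4 and NRP1 lie below 0. NRP2 passed the filter on low counts only through the si-CITED2 libraries, where it is high.

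Downstream of the receptors, 6 of 25 signalling genes rose and 0 fell, against 9.36% and 8.09% of all genes tested. The list was not tested as a set. The median log2 fold change of the 25 was 0.12. The 4 with the smallest adjusted p were RASA1, a RAS GTPase-activating protein that docks on PDGFRB (log2 fold change 0.34, adjusted p = 0.000222), the RAS exchange factor SOS2 (0.30, adjusted p = 0.000358), the adaptor SH2D2A that binds KDR (0.71, adjusted p = 0.00698) and the PI3-kinase subunit PIK3R2 (0.19, adjusted p = 0.0244). Without si-Control replicate 2 the count was 3. The SH2D2A call was lost without si-CITED2 replicate 3 (adjusted p = 0.0565), and that of PIK3R2 without si-Control replicate 2 or si-CITED2 replicate 1 or 2 (0.0789 to 0.121).

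Of 21 genes of oxygen sensing and of VEGFA transcription and mRNA decay, 6 rose (CITED2 and ARNT among them) and 2 fell. The shares over all genes tested were 9.36% higher and 8.09% lower. The median log2 fold change of the 21 genes was 0.02. CITED2 itself competes with HIF1A for CBP and p300. HIF1A had a log2 fold change of 0.10 (adjusted p = 0.177), while EPAS1, which encodes HIF2A, rose from 1472.1 ± 31.7 to 1950.4 ± 48.8 normalised counts (0.41, adjusted p = 3.75e-05). EGLN1, the oxygen-sensing prolyl hydroxylase, rose (0.30, adjusted p = 0.000401), as did the CITED family member CITED4, from 35.3 ± 4.98 to 75.5 ± 13.8 (1.08, adjusted p = 0.00192).

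The ZFP36 family binds AU-rich mRNAs, VEGFA among them, and speeds their decay, and its members moved in opposite directions. ZFP36L1 rose from 2497.2 ± 208.0 to 3990.2 ± 40.7 normalised counts (log2 fold change 0.68, adjusted p = 3.12e-07). ZFP36 fell from 532.0 ± 19.2 to 380.1 ± 9.74 (-0.48, adjusted p = 0.000337), and ZFP36L2 from 600.1 to 477.1 (-0.33, adjusted p = 0.00539).

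Of 22 other angiogenic factors, 17 were tested, 6 rose and 1 fell, against 9.36% and 8.09% of all genes tested. The median log2 fold change of the 17 was 0.03. ANGPTL4, a secreted regulator of lipoprotein lipase and vessel permeability, rose 13.2-fold, from 756.4 ± 47.6 to 9965.7 ± 627.8 normalised counts (log2 fold change 3.72, adjusted p = 5.14e-16). THBS1, which encodes the angiogenesis inhibitor thrombospondin 1, rose 2.26-fold (1.17, adjusted p = 1.72e-11). EFNA1, an ephrin ligand (0.86, adjusted p = 4.51e-07), and SEMA3C, a semaphorin that signals through neuropilins (0.38, adjusted p = 2.12e-05), also rose. The chemokine gene CXCL8 fell from 1565.1 ± 33.4 to 1280.5 ± 150.1 (-0.29, adjusted p = 0.0103), a call lost without si-CITED2 replicate 3 (adjusted p = 0.0558). ANGPT1 and HGF, ligands of vessel-stabilising and epithelial receptors, were at 0 counts in every library.

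Genes that mark other cell types, and epithelial genes, were summed in each library, and their part in these results was not tested. For the calls below, the shares over all genes tested were 9.36% higher and 8.09% lower. The 10 endothelial markers summed to 920.2 to 1031 normalised counts in si-Control and 1022.4 to 1140.2 in the libraries labelled si-CITED2, mostly from EGFL7, with 2 of 4 tested genes higher (ROBO4 and ESAM). The other tested genes, EGFL7 (log2 fold change 0.07) and EMCN (-0.26), did not pass. CDH5, under the filter, went the other way, with 7, 9 and 4 raw counts in si-Control and 2, 1 and 0 in the libraries labelled si-CITED2. The 12 pericyte and fibroblast markers summed to 1798.9 to 1892 and 2198.6 to 2230.6, mostly from MCAM (means 1138.4 and 1348.4). Of their 6 tested genes 2 were higher, MCAM (log2 fold change 0.25, adjusted p = 0.00588) and ANPEP (1.06, adjusted p = 0.000146). The 8 platelet and leukocyte markers, cells known to carry PDGF, summed to 3334.7 to 3563.1 and 2974.6 to 3580.9, mostly from CD68, with 0 of 2 tested genes past the threshold and PPBP and GP9 at 0. The 5 epithelial markers summed to 42346.9 to 45108.1 and 45903.3 to 50151.9, with KRT8 and KRT18 higher and CDH1 (-0.52, adjusted p = 1.67e-05) and EPCAM (-0.33, adjusted p = 0.0011) lower.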

How the data were processed

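The authors deposited counts of reads per gene symbol, not normalised, 1 file per culture. Total RNA was taken with Trizol and libraries were made with a SMARTer mRNA-Seq kit. The submitters' processing notes name TopHat, edgeR and hg19. The counting program, annotation and strand setting are not given in the sources used here. Groups and replicate numbers came from the sample titles, and the study states that the experiments were independent.

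Of 286 symbols listed more than once, only the most counted row was used, and 0.0821% of counts were dropped. The edgeR package (4.0.16, under R 4.3.3) was used: low genes were removed by filterByExpr, libraries were scaled by TMM, and groups were compared by glmQLFit and glmQLFTest without a block, with Benjamini-Hochberg adjustment over 16314 genes. SEs come from the F statistic, and normalised counts are scaled to the mean library. Intervals of counts cover counting error only. No library pair agreed within sampling noise. DESeq2 1.42.0 was an alternative. The script was tested on simulated data.

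The genes, lists and tests were chosen with earlier results of these data known. Named genes were the 8 ligands, CITED2, VEGFD, all receptor and ligand-processing genes, up to 4 genes per direction by adjusted p in each other pathway list, the markers with the most counts, and the 5 genes most correlated with PDGFB. Others named (ARNT, HIF1A, ANGPT1, HGF, FGF1, EFNB2, EDN1, and markers given for their counts or for passing the threshold) were chosen after their values were seen. Lengths and exon overlaps come from GENCODE 29 (GRCh38).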

Additional observations from a re-analysis of the deposited data

How the results depend on the processing

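The 13 alternatives were the replicate block, each of the 6 libraries left out, DESeq2, library size without TMM, upper-quartile factors, 2 other filters and summed repeated symbols. The number of ligand genes past the threshold was 4 in each of the 13. Of 104 values of the 8 ligands under the alternatives, 97 kept direction and side of the threshold, and the other 7 are VEGFB, whose log2 fold change near 0 turned to -0.00052 with the replicate block, -0.016 with library size alone, -0.0043 with upper-quartile factors, -0.0012 without the filter, and -0.06 to 0.038 with 1 library left out. CITED2 had log2 fold changes of 0.17 to 0.29 with 1 library left out and 0.22 (adjusted p = 0.0518) with library size alone. Replicate numbers did not pair the samples (correlations of same-numbered libraries -0.038, 0.034 and -0.011), and with the block 1405 genes were higher and 1154 lower, against 1527 and 1319. The block changed no call among the ligands. The heat map rule took 311 genes, 564 without the filter, where more low genes are tested, and 197 with at least 10 counts in every library. Receptor signalling calls, 6 in all libraries, were 3 to 7 with 1 library left out, 3 without si-Control replicate 2, and 8 under either other filter. Of the other genes that passed, 20 were followed through the alternatives. Of these, 16 kept their call in every alternative that could be run, and NRP1, PIK3R2, SH2D2A and CXCL8 did not. ARNT, EFNB2, EDN1 and the markers that passed were not followed. PCSK6 passed without the filter (-0.35) and without si-Control replicate 1 (-0.46). Among genes that had not passed, the sign turned with 1 library left out for CCBE1 (-0.0028 to 0.089), FLT1 (-0.06 to 0.34), PCSK7 (-0.034 to 0.054, and -0.0019 with library size alone), PDGFRL (-0.12 to 0.13) and ST14 (-0.083 to 0.032). The cause was not tested. Depth limits PDGFD, FLT1 and the receptors under the filter.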

Other observations

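The 5 genes whose log2 CPM ran closest to that of PDGFB over the 6 libraries were PRSS23 (Pearson r 0.9985, log2 fold change 0.45), TM9SF3 (0.9982, 0.25), SLC39A7 (0.9981, 0.41), S100A10 (0.9964, 0.31) and P4HA3 (0.9963, 0.95). All 5 were higher in the libraries labelled si-CITED2, and 34 genes reached an r over 0.99. The libraries fall into their 2 groups, so these correlations rest largely on the difference between groups and are given as a description. Of the other angiogenic factors that rose, EFNB2, an ephrin of arterial vessels, went from 106.7 ± 14.9 to 216.2 ± 19.2 normalised counts, and EDN1, which encodes the vasoconstrictor endothelin 1, from 125.2 ± 5.39 to 234.5 ± 37.8. The growth factor gene FGF1, under the filter, had 4, 2 and 5 raw counts in si-Control and 21, 17 and 6 in the libraries labelled si-CITED2, a ratio of rates of 4.62 with a 95% counting interval of 2.35 to 9.93. That interval leaves out the spread between replicates, which for FGF1 in the libraries labelled si-CITED2 was 58.8%, against 26.1% from counting.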
